A study of Mus musculus with 2 samples.

Results

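Expression of the complement genes C1qa, C1qb, C1qc, C1ra, C4b, C3, C7 and Serping1 was examined across the cell types of the mouse heart, in a library from Sham mice and a library from mice subjected to transverse aortic constriction (TAC). These 8 genes were taken by symbol from the 55357 genes of the deposited matrices, and each symbol matched 1 gene. TAC narrows the aortic arch by ligation and overloads the left ventricle. The TAC mice were males of the C57BL/6 strain, operated on at 8 weeks of age and kept under constriction for 6 weeks. The Sham mice were C57BL/6 and went through the operation without the constriction, although the series description calls the controls uninjured. Their age is not given in the sources used here, and the study states that it used males. Cells from 3 to 5 hearts were combined into each library, so each condition is 1 library with no replicate check, and no test between Sham and TAC was made. Intervals below are 95% intervals for counting error only (exact Poisson for levels, Clopper-Pearson for shares, exact conditional binomial for ratios). The operation, the animals and the library cannot be told apart.

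RNA molecules were counted by unique molecular identifiers (UMIs) from the 3′ end of transcripts, and a level is the UMIs of a gene per 1000000 UMIs of the same cells (CPM). Because 3′ counts are not set per length, levels are compared between cells and not between genes. After removal of predicted doublets, 9475 Sham cells with 25943020 UMIs and 9452 TAC cells with 26640422 UMIs remained. Clusters were named from fixed markers without any complement gene, so each name below stands for a cluster that is like that cell type. The Sham and TAC libraries held 1412 and 1348 macrophages, 2291 and 2128 fibroblasts, 1904 and 2252 endothelial cells, 1065 and 1043 pericytes, and 2511 and 2396 cardiomyocytes. Lymphatic endothelial, smooth muscle, epicardial, Schwann, T and B cells made up the rest, apart from 48 Sham cells left unnamed, which met 4 dendritic cell markers (Flt3, Xcr1, Clec9a and Zbtb46) and had the cell cycle genes Mki67, Top2a, Knl1 and Kif11 among their leading genes. Of the barcodes, 32 were shared by both libraries. The cardiac stress genes, which a pressure-overloaded heart is known to raise, differed in direction between the libraries. Myh7 was 609 CPM in Sham and 826 in TAC cardiomyocytes (1.36-fold, interval 1.32 to 1.40). In the same cells, Nppa (15.6 and 11.7), Nppb (38.1 and 29.4) and Acta1 (33.7 and 11.97) were lower in the TAC library. Their ratios were 0.754 (0.608 to 0.933), 0.772 (0.675 to 0.883) and 0.355 (0.294 to 0.426), with each interval below 1.

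Complement is a cascade of plasma and tissue proteins that marks particles, dying cells and debris for removal. In the classical pathway, C1q is built from the A, B and C chains, binds its target and activates the proteases C1r and C1s, which cleave C4 and C2 to form an enzyme that cleaves C3. C3 fragments coat the target and are read by receptors on phagocytes, and the terminal components, C7 among them, assemble a pore in membranes. The C1 inhibitor, encoded by Serping1, inactivates C1r and C1s. The liver makes most of the circulating proteins, while macrophages are the best-known source of C1q.

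On mouse assembly GRCm38 with GENCODE M21 annotation, the C1q genes lie side by side on the minus strand of chromosome 4: C1qb (ENSMUSG00000036905) at chr4:136880129-136886187, C1qc (ENSMUSG00000036896) at chr4:136889804-136893065 and C1qa (ENSMUSG00000036887) at chr4:136895917-136898803. C1ra (ENSMUSG00000055172) lies on the plus strand at chr6:124512405-124523443. The other members are on minus strands, C4b (ENSMUSG00000073418) at chr17:34728380-34743882, C3 (ENSMUSG00000024164) at chr17:57203970-57228136, C7 (ENSMUSG00000079105) at chr15:4988762-5063740 and Serping1 (ENSMUSG00000023224) at chr2:84765387-84775444. All 8 are annotated as protein coding. C1ra and C4b have near-identical copies, C1rb and C4a. Of the 551 stretches of 50 bases in the last 600 bases of the transcript, 30.1% were shared by C1ra with C1rb and 38.3% by C4b with C4a, so counts of C1ra and C4b are uncertain to the extent that reads could not be placed. C1rb held 6 UMIs and C4a 43 over both libraries. C3 overlaps the microRNA gene Mir6978 and C7 the small RNA gene Gm25652.

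The 250 bases before the start site are shown for 3 members with different main cell clusters, C1qb for macrophages, C3 for the fibroblasts at large and C7 for the adventitial fibroblasts. They are RefSeq sequences of GRCm38.p6, all from the minus strand and written 5′ to 3′, at chr4:136886201-136886450, chr17:57228137-57228386 and chr15:5063774-5064023. Capitals mark matches to any of 4 motifs, searched on both strands.
C1qb: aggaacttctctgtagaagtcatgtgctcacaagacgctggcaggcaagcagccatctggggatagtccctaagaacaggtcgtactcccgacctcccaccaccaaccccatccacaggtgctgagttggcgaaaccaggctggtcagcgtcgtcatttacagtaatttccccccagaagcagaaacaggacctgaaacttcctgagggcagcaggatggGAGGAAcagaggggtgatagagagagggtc
C3: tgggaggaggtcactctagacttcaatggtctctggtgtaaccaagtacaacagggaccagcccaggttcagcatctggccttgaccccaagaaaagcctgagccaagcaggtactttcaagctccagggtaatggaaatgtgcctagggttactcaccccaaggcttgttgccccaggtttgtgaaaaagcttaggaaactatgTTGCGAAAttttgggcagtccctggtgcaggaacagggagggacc
C7: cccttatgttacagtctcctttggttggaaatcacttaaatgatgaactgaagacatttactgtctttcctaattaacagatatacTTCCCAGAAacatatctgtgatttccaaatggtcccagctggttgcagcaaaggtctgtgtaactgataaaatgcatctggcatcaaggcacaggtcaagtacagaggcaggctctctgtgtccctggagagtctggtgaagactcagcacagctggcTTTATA

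The myeloid factor PU.1 is known to bind a GAGGAA core, which 23.3% of 32851 promoters held. This core began 30 bases before the start of C1qb. In C1qc it lay on the other strand, as TTCCTC from 193 bases before the start. C3 had a C/EBP-type TTGCNNAA 45 bases before its start (9.56% of promoters). C7 held the STAT-type element TTCNNNGAA at 164 bases (7.02%) and, on the other strand, TATAAA at 6 bases before its start (12.4%). C1ra held none of these 4 in its window, and no such sequence was read for C1qa, C4b and Serping1. The windows end at RefSeq starts, which can differ from the GENCODE positions above. Those of C1ra (chr6:124512371-124512620) and C1qc (chr4:136892915-136893164) overlap the GENCODE gene, so they are not wholly upstream of it. A match describes letters and is not a measured site.

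The 8 genes fell into a macrophage set and a fibroblast set, with C4b in both. Of the C1qa UMIs, 86.7% in Sham (interval 84.3 to 88.9) and 86.5% in TAC (84.6 to 88.3) were in macrophages. The share was 91.0% and 90.0% for C1qb and 88.8% and 91.7% for C1qc. Macrophages were 1412 of the 9475 Sham cells and 1348 of the 9452 TAC cells. Fibroblasts held 98.0% and 97.9% of C7 UMIs, 84.5% and 83.0% of Serping1, 81.2% and 80.9% of C1ra, and 74.7% and 79.5% of C3. C4b was the exception, with 51.1% of its UMIs in macrophages and 44.5% in fibroblasts in Sham, and 37.9% and 55.9% in TAC. With 1 CPM added to each level, C1qa, C1qb, C1qc and C4b (10.5-fold) were at least 10-fold higher in Sham macrophages than in all other Sham cells, where 3.34% of 15259 genes were. In TAC the 3 C1q genes were past that fold and C4b was 5.38-fold, against 3.34% of 15875 genes. C1ra, C3, C7 and Serping1 were at least 10-fold higher in fibroblasts than in all other cells in both libraries, where 2.18% of genes were in Sham and 2.11% in TAC.

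**Figure D1:**
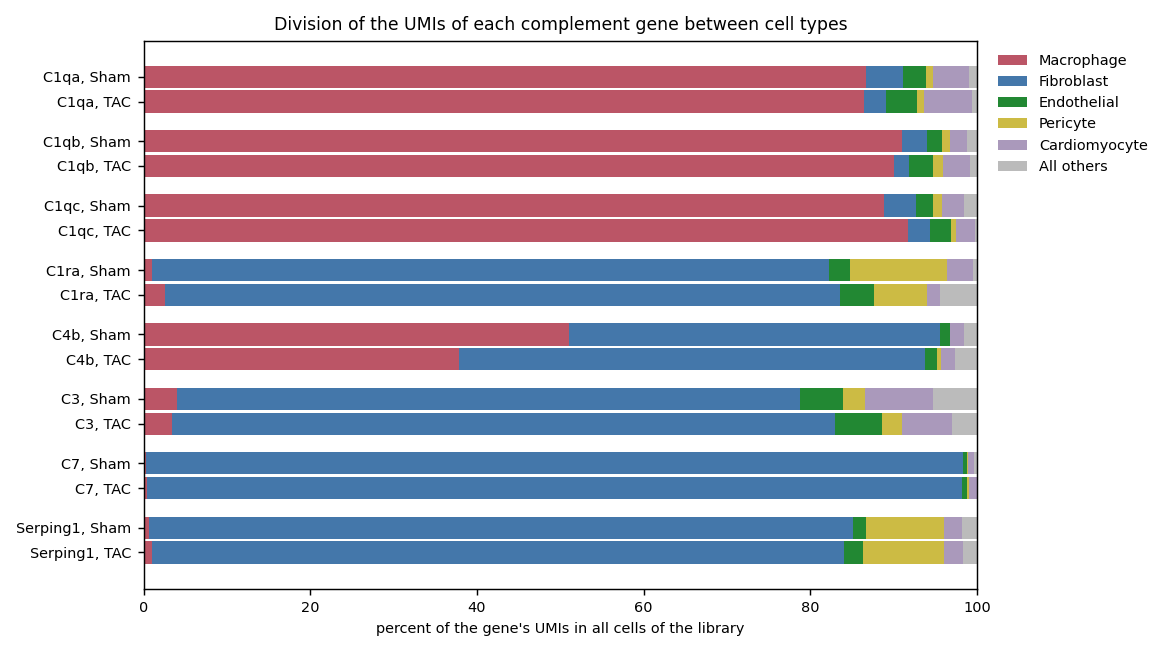
Share of each gene's UMIs (percent, horizontal axis) in macrophages, fibroblasts and the other cell types, for the Sham and TAC libraries. Bars of the C1q genes are mostly macrophage, those of C1ra, C3, C7 and Serping1 mostly fibroblast, and C4b is divided, with 51.1% in Sham and 37.9% in TAC macrophages.

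In macrophages, the C1q chains were each higher in the TAC library, by 1.13- to 1.29-fold. C1qa, the A chain, was 349 CPM in Sham (interval 325 to 375) and 451 in TAC (425 to 477), a ratio of 1.29 (1.18 to 1.42). C1qb, the B chain, was 375 (350 to 401) and 423 (398 to 449), with intervals that overlapped at their ends and a ratio of 1.13 (1.03 to 1.24). C1qc, the C chain, was 312 (289 to 336) and 376 (352 to 400), a ratio of 1.20 (1.09 to 1.33). The chains together were 1036 and 1249 CPM (1.21-fold, 1.14 to 1.27), on 2288 and 3266 UMIs. The macrophage markers summed in the same cells differed by 1.03-fold, and the 89 ribosomal protein genes by 1.29-fold. The part of either in the C1q difference was not tested.

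The share of macrophages with a UMI moved with depth. Median depth was 1314.5 UMIs in Sham and 1661 in TAC macrophages. C1qa was detected in 35.8% and 49.4% of them, C1qb in 39.7% and 45.5%, and C1qc in 32.2% and 43.0%. At least 1 chain was seen in 69.1% (66.6 to 71.5) and 77.2% (74.8 to 79.4), and all 3 chains in 7.79% and 15.9%. As a comparison with a cell type that should lack C1q, at least 1 chain was seen in 2.91% and 5.30% of cardiomyocytes, whose median depths were 4510 and 4916.5 UMIs. After thinning each cell to 1000 UMIs, which left out 401 Sham and 222 TAC macrophages, the shares were 27.5% and 34.7% for C1qa, 29.97% and 29.93% for C1qb and 25.8% and 27.9% for C1qc. At equal depth, C1qa thus kept a gap between the libraries and C1qb had none. For C1qc the intervals of the 2 shares overlapped (23.1 to 28.6 in Sham and 25.3 to 30.6 in TAC). Thinned fibroblasts with C1qa were 0.817% and 0.836%.

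Outside macrophages, C1q was low in every large cell type. C1qa was 70.2-fold higher (57.8 to 86.0) in macrophages than in all other Sham cells and 58.8-fold (50.3 to 69.1) in TAC. The corresponding figures were 109 and 82.6 for C1qb and 85.1 and 101 for C1qc. In fibroblasts, endothelial cells, pericytes and cardiomyocytes, the C1q genes were at 0.376% to 3.50% of their macrophage level, where the median over the 11 macrophage markers was 0.299% to 1.20%. The highest single marker was at 2.64% to 21.3%. Summed, these markers were at 0.280% to 2.23% of their macrophage level, and 1 of the 11 was at 0 UMIs in Sham pericytes and none was in the other combinations of type and library. C1qa in cardiomyocytes was 2.82 CPM in Sham and 5.87 in TAC (38 and 77 UMIs, 2.08-fold, 1.40 to 3.16), and C1qb was 1.41 and 3.05 (19 and 40 UMIs, 2.16-fold, 1.22 to 3.96). C1qc there was 1.56 and 1.83 (21 and 24 UMIs, 1.18-fold), and its interval included 1 (0.627 to 2.22). The summed macrophage markers in cardiomyocytes were 37.0 and 41.2 CPM (1.11-fold, 0.983 to 1.26). In endothelial cells, C1qa was 9.90 and 15.8 CPM, and the interval of the ratio included 1 (1.59, 0.964 to 2.71). C1qa in fibroblasts was 7.18 and 6.75 CPM. The part of free RNA from macrophages in these counts was not tested.

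**Figure D2:**
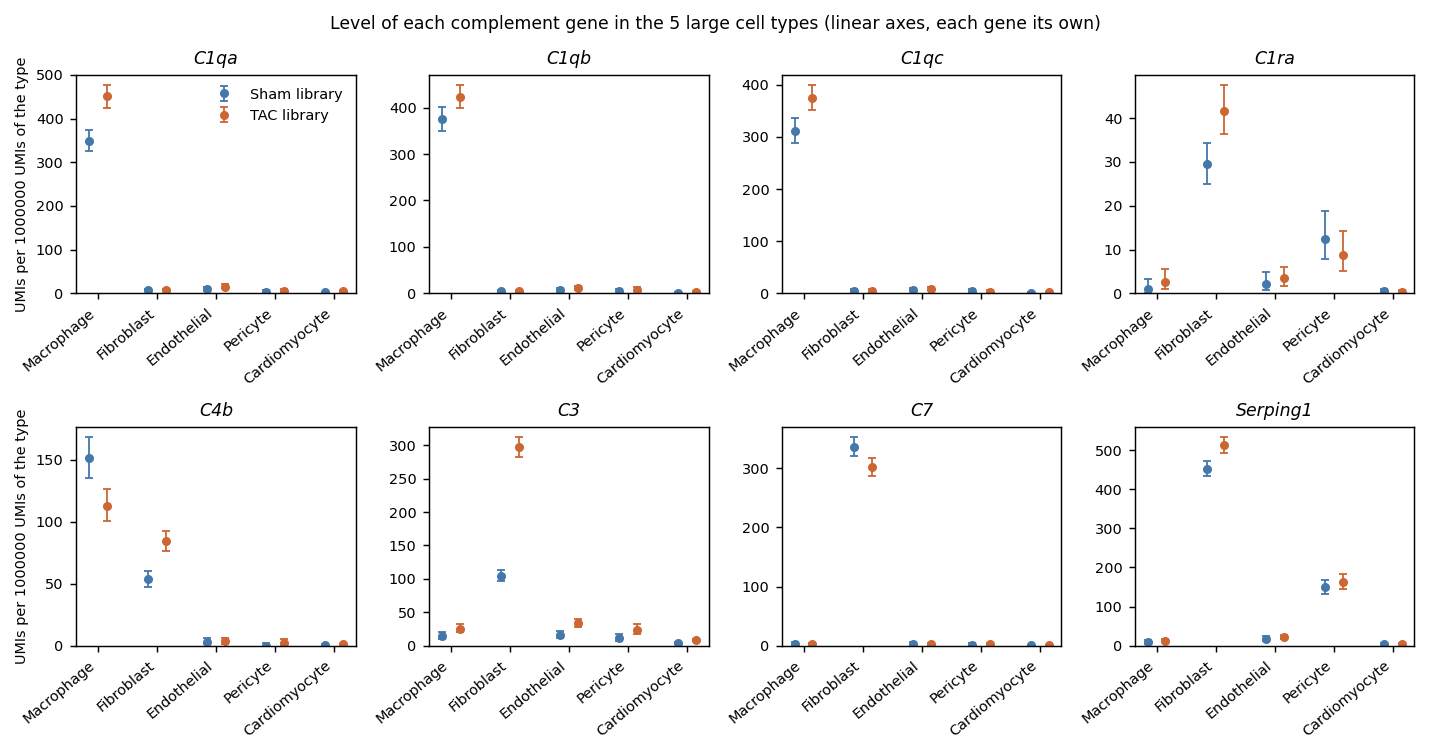
Level in CPM (linear axis, its own scale for each gene) of each of the 8 genes in the 5 largest cell types, in Sham and TAC, with exact Poisson 95% intervals. The C1q genes stand at 312 to 451 in macrophages and below 16 in the other 4 types, and C7 stands above 300 in fibroblasts alone among these 5 types.

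Macrophages of both libraries were sub-clustered together without complement genes and fell under 3 names. A class II-low resident cluster held 123 Sham and 429 TAC cells, a class II/Ccr2 cluster 327 and 523 (6 of the TAC cells from a separate small cluster that met the same markers but was led by Gm36723, Btla and Clec9a, a dendritic cell marker), and a cluster without enough markers for a name, led by Zbtb16, Cp and Rgl2, 962 and 396. All 3 clusters carried each C1q chain. The chains summed to 1151 CPM in Sham and 1423 in TAC for the resident cluster (1.24-fold), 987 and 1063 for the class II/Ccr2 cluster (1.08-fold, 0.966 to 1.20), and 1022 and 1185 for the Zbtb16-led cluster (1.16-fold). C1qa was 416 and 540 CPM in the resident cluster, 342 and 453 in the Zbtb16-led cluster, and 318 and 335 in the class II/Ccr2 cluster. C1qb was 381 and 457, 377 and 386, and 363 and 401 in the same order, and C1qc 354 and 426, 303 and 346, and 306 and 327. Weighted to the cluster mix of the Sham library, the summed C1q ratio was 1.16, against 1.21 with the clusters as found. The resident cluster came mostly from TAC and the Zbtb16-led cluster mostly from Sham, so for both clusters the library and the kind of macrophage cannot be told apart. The balance of the class II/Ccr2 cluster turned with finer clusters. At resolution 1 a cluster of that name held 336 Sham and 158 TAC cells and a smaller one 14 and 38. A cluster led by Col14a1, Creb5 and Bcl2, with 48 Sham and 303 TAC cells, then had no name.

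**Figure D3:**
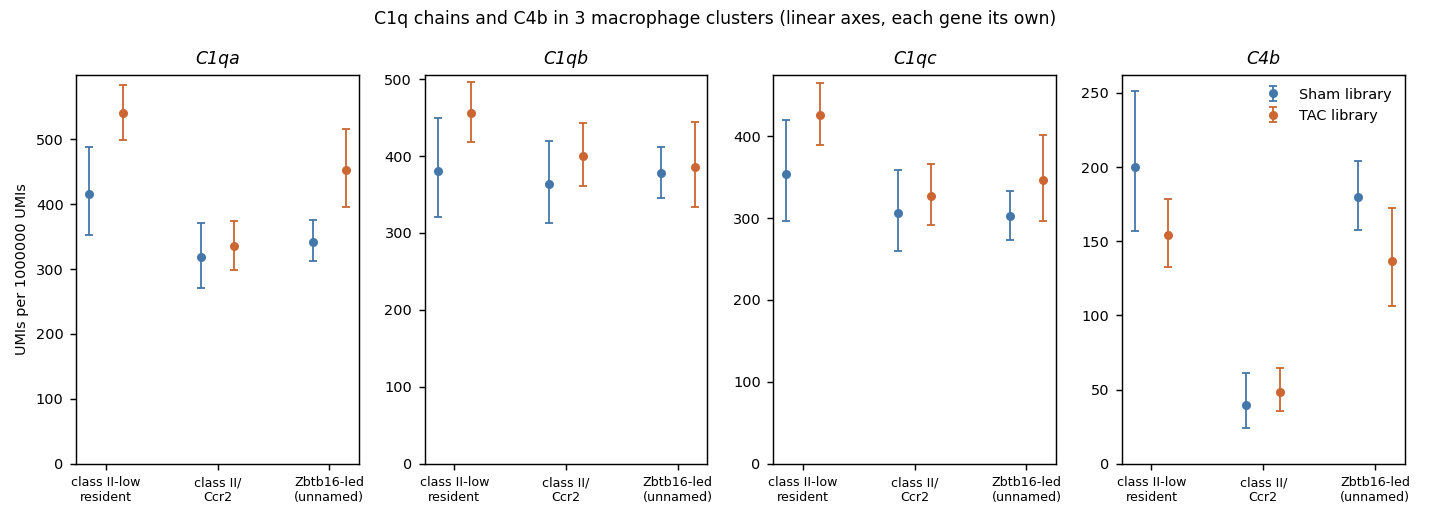
CPM of C1qa, C1qb, C1qc and C4b in the 3 macrophage clusters, for Sham and TAC, with exact Poisson 95% intervals. Each C1q chain is above 300 CPM in every cluster and library, while C4b is 39.7 and 48.5 in the class II/Ccr2 cluster and 136 to 200 in the other clusters.

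C1ra encodes C1r, the first protease that C1q activates. Fibroblasts had 29.4 CPM of it in Sham (25.1 to 34.4) and 41.6 in TAC (36.3 to 47.6), a ratio of 1.41 (1.15 to 1.75) on 160 and 216 UMIs. Pericytes were the next of the large cell types, at 12.5 (7.94 to 18.8) and 8.84 (5.15 to 14.2), with a ratio of 0.706 whose interval included 1 (0.354 to 1.38). Macrophages had 2 and 7 C1ra UMIs, so the chains of C1q and the protease they activate were counted mostly in different cells. The share of fibroblasts with C1ra was 6.15% and 8.93%, and 2.69% and 4.87% after thinning to 1000 UMIs. Among fibroblast clusters, C1ra was 38.5 and 58.4 CPM in the Nkain2/Fbn2/Vit cluster (1.52-fold), 21.3 and 39.7 in the Pi16 adventitial cluster (1.86-fold), 29.6 and 33.9 in the Rbfox1-led cluster, and 23.0 and 22.1 in the Postn/Cilp cluster.

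These fibroblast clusters came from sub-clustering the fibroblasts of both libraries without complement genes. The Pi16 adventitial cluster held 333 Sham and 671 TAC cells, the Postn/Cilp matrix cluster 306 and 133, and the Nkain2/Fbn2/Vit cluster 611 and 613. A cluster led by Rbfox1, Col5a3 and Adgrl3, which met too few markers for a name, held 994 and 672 cells. An interferon-response cluster of 35 and 17 cells, a cluster of 12 and 17 cells led by Erbb4, Pdzrn4 and Rspo3, and 5 TAC cells led by Plin1, Cidec and Tshr were small. The Pi16 cluster came mostly from TAC and the Postn/Cilp cluster mostly from Sham, and there too the library and the kind of fibroblast cannot be told apart. The Sham excess of the Postn/Cilp cluster depended on the resolution. At resolution 1 that name covered 166 Sham and 164 TAC cells, and 184 Sham and 22 TAC cells of the earlier cluster had no name. Its ratios below may therefore compare unlike cells.

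C4b encodes C4, whose cleavage by C1s starts the deposition of complement on a surface. It was the one member with a similar part in macrophages and fibroblasts, and its 2 sources differed in direction between the libraries. Macrophages had 151 CPM in Sham (135 to 168) and 113 in TAC (101 to 127), on 334 and 296 UMIs, a ratio of 0.749 (0.638 to 0.878). Fibroblasts had 53.6 (47.6 to 60.1) and 84.3 (76.5 to 92.5), on 291 and 437 UMIs, a ratio of 1.57 (1.35 to 1.83). Neither pair of intervals overlapped. The macrophage level was 2.82-fold the fibroblast level in Sham (2.41 to 3.32) and 1.34-fold in TAC (1.16 to 1.56). After thinning to 1000 UMIs, C4b was seen in 12.4% and 9.15% of macrophages and in 4.23% and 7.28% of fibroblasts, and without thinning in 16.5% and 14.8% and in 8.21% and 12.6%. Pericytes held 0 C4b UMIs in Sham, where 3 counts would be 1.63 CPM, and 4 in TAC, or 2.08 CPM. Schwann cells, 17 in Sham and 13 in TAC, had 8 and 10 C4b UMIs, or 261 (113 to 514) and 383 (184 to 704) CPM. A single cell held 25% of these UMIs in Sham and 60% in TAC, so these intervals may be too narrow.

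Within each source, C4b was uneven. In macrophages it was 200 and 154 CPM in the resident cluster and 180 and 136 in the Zbtb16-led cluster, against 39.7 and 48.5 in the class II/Ccr2 cluster, a level 0.216 and 0.326 times that of the other macrophages. Macrophages with a C4b UMI also had a C1q UMI in 75.5% of 233 cells in Sham and 88.5% of 200 cells in TAC, and macrophages without C4b in 67.8% of 1179 and 75.2% of 1148. These cells were not thinned, so the part of depth in that gap was not tested. In fibroblasts, the Nkain2/Fbn2/Vit cluster had 120 and 171 CPM (181 and 252 UMIs, 1.43-fold, 1.17 to 1.73), or 4.29- and 3.43-fold the other fibroblasts, and held 62.2% and 57.7% of their C4b. The Rbfox1-led cluster had 30.1 and 55.6, the Pi16 cluster 25.4 and 44.1, and the Postn/Cilp cluster 9.69 and 27.0. The intervals of the ratio lay above 1 in each of these 4 clusters, with the lowest bound at 1.02 in the Postn/Cilp cluster on 8 and 11 UMIs. The small Erbb4-led cluster had 471 and 173 CPM on 13 and 7 UMIs, lower in TAC. With the subcluster mix held at that of Sham, the C4b ratio was 1.55 in fibroblasts and 0.789 in macrophages.

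C3, the component on which the activation pathways converge, had the largest difference between the libraries among the members in fibroblasts. Fibroblasts had 105 CPM in Sham (96.5 to 114) and 297 in TAC (282 to 312), on 570 and 1540 UMIs, a ratio of 2.83 (2.57 to 3.12). Of 12300 genes compared in fibroblasts, 68 (0.553%) had a ratio at least as high. C3 was seen in 15.9% and 34.7% of fibroblasts at median depths of 2155 and 2266.5 UMIs, and in 8.32% and 19.9% of those thinned to 1000 UMIs. Of thinned macrophages, 1.38% and 2.49% had C3. The higher share in TAC was thus present with and without thinning.

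C3 was higher in TAC in each of the 4 large fibroblast clusters, and all their intervals lay above 1. It was 148 and 369 CPM in the Pi16 cluster (2.49-fold, 2.08 to 3.00), 63.0 and 214 in the Postn/Cilp cluster (3.40-fold, 2.38 to 4.88), 130 and 376 in the Nkain2/Fbn2/Vit cluster (2.89-fold, 2.45 to 3.42), and 84.3 and 147 in the Rbfox1-led cluster (1.75-fold, 1.42 to 2.15). The interferon-response cluster had 83.6 and 417 on 8 and 19 UMIs. Held at the Sham cluster mix, the ratio in fibroblasts was 2.53. The fibroblast markers summed were 1.28-fold higher in TAC fibroblasts, the ribosomal protein genes were 1.45-fold higher, and 5 of 8 immediate-early genes compared were at least 1.5-fold higher, with a median log2 ratio of 0.86, where 9.30% of all genes compared were 1.5-fold higher, 3.59% lower and the median was 0.02. Of 12 interferon-induced genes compared in fibroblasts, 0 were at least 1.5-fold higher and 1 was at least 1.5-fold lower, with a median log2 ratio of 0.11. Their part in the C3 difference was not tested.

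C3 was also higher in TAC in the other large cell types, at lower levels. Endothelial cells had 16.1 and 33.7 CPM (39 and 109 UMIs, 2.10-fold, 1.44 to 3.11) and pericytes 10.9 and 23.9 (20 and 46 UMIs, 2.20-fold, 1.27 to 3.92). Macrophages had 14.0 and 25.6 (31 and 67 UMIs, 1.83-fold, 1.18 to 2.89) and cardiomyocytes 4.67 and 8.84 (63 and 116 UMIs, 1.89-fold, 1.38 to 2.62). The fibroblast markers, summed in the same 4 types, differed by 1.35-, 1.16-, 1.25- and 1.37-fold. As a share of the fibroblast level, C3 was 15.3% and 11.4% in endothelial cells, where the median fibroblast marker was 6.28% and 4.60%, and 13.4% and 8.63% in macrophages, where it was 2.88% and 2.56%. In pericytes C3 was 10.4% and 8.06%, beside 9.42% and 7.75%, and in cardiomyocytes 4.45% and 2.98%, beside 0.806% and 1.02%. The highest single marker stood above C3 in endothelial cells (26.2% and 29.0%) and pericytes (34.3% and 24.3%). It stood below C3 in macrophages (10.5% and 7.74%) and cardiomyocytes (3.31% and 2.73%). The part of free fibroblast RNA in these counts was not tested. The highest C3 level of any named type was in the epicardial cells, 19 in Sham and 26 in TAC, with 689 (454 to 1003) and 646 (462 to 880) CPM on 27 and 40 UMIs. That was 6.57-fold the fibroblast level in Sham (4.29 to 9.66) and 2.18-fold in TAC (1.55 to 2.98), and the epicardial level itself gave no difference between the libraries beyond counting error (0.938, 0.561 to 1.59).

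C7, the terminal component that anchors the forming pore in the membrane, was the member most restricted to 1 cell type. Fibroblasts had 337 CPM in Sham (321 to 352) and 302 in TAC (287 to 317), on 1829 and 1567 UMIs, a ratio of 0.898 (0.839 to 0.961). It was 182-fold (132 to 258) and 191-fold (136 to 276) higher in fibroblasts than in all other cells. With 1 CPM added, C7 ranked 1 among the 15259 genes compared in Sham and 1 among 15875 in TAC by this fold. In the other 4 large cell types it stood at 0.308% to 1.10% of the fibroblast level. C7 was seen in 19.0% and 18.5% of fibroblasts, and in 13.3% and 12.1% after thinning to 1000 UMIs.

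The small difference in fibroblasts as a whole covered opposite differences in their clusters. In the Pi16 adventitial cluster, C7 was 850 CPM in Sham (793 to 909) and 412 in TAC (383 to 443), on 836 and 748 UMIs, a ratio of 0.485 (0.439 to 0.536). The cluster stood 3.81-fold above the other fibroblasts in Sham and 1.70-fold in TAC, and 39.0% and 25.8% of its cells had a C7 UMI. The Postn/Cilp cluster had 354 and 187 (0.528, 0.405 to 0.682). The Nkain2/Fbn2/Vit cluster had 266 and 366 (1.38, 1.21 to 1.57). At resolution 1 that name covered only 107 Sham and 72 TAC cells, which gave 0.787 (0.532 to 1.15). The 497 Sham and 543 TAC cells of the cluster that then had no name were at 261 and 366 CPM. The Rbfox1-led cluster had 132 and 129 (0.975, 0.802 to 1.18). The Pi16 cluster was 14.5% of the Sham and 31.5% of the TAC fibroblasts, and at the Sham cluster mix the C7 ratio of fibroblasts was 0.777. A single Pi16 cell held 95 C7 UMIs in Sham, with 50 in the next cell, and a single Pi16 cell held 51 in TAC. Without these cells the C7 ratio was 0.916 (0.855 to 0.982) in fibroblasts and 0.509 (0.458 to 0.565) in the Pi16 cluster.

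**Figure D4:**
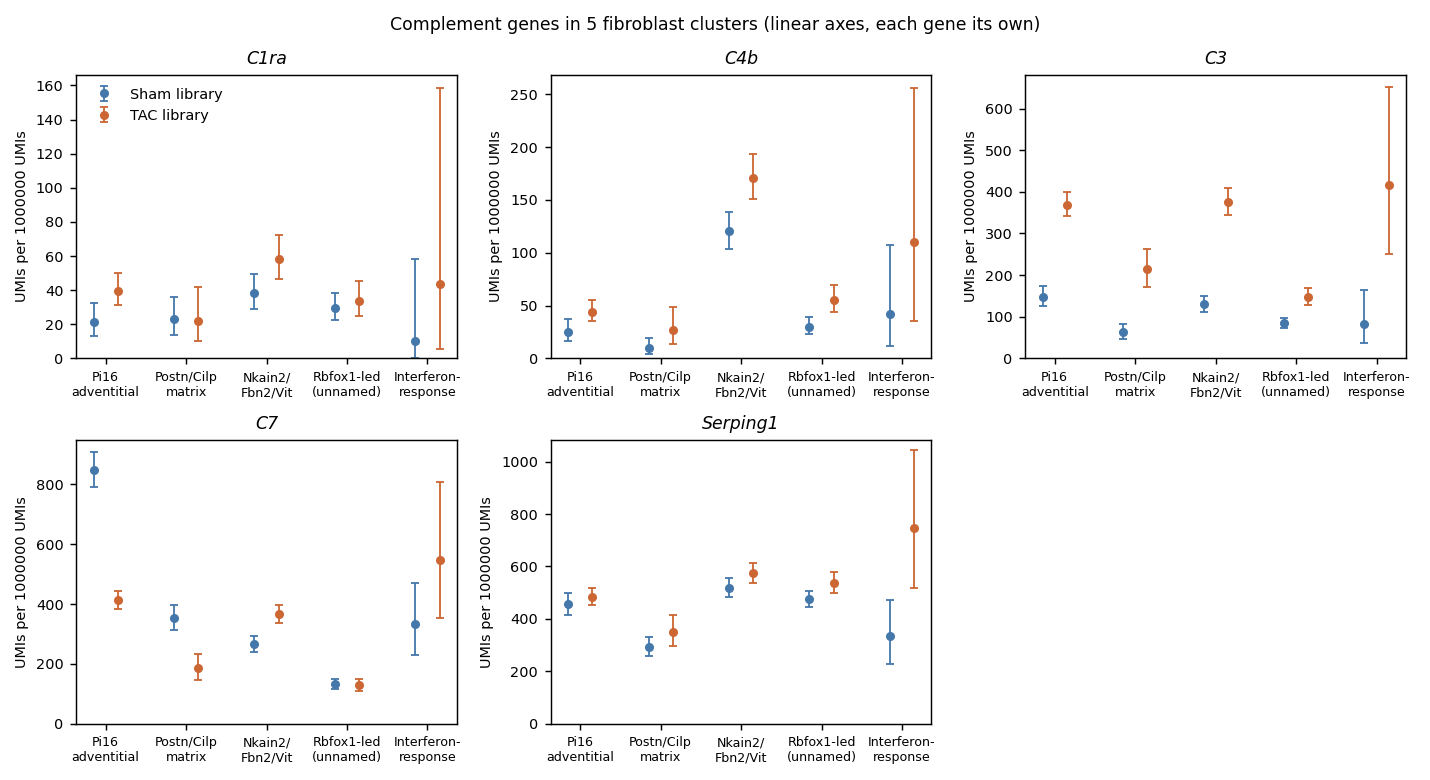
CPM of C1ra, C4b, C3, C7 and Serping1 in the fibroblast clusters, for Sham and TAC, with exact Poisson 95% intervals. C3 is higher in TAC in each of the 4 large clusters, C7 is 850 in Sham and 412 in TAC in the Pi16 adventitial cluster, and C4b is highest of those 4 in the Nkain2/Fbn2/Vit cluster.

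Serping1 encodes the C1 inhibitor, which shuts down C1r and C1s. Fibroblasts had 453 CPM in Sham (435 to 471) and 513 in TAC (494 to 533), on 2460 and 2661 UMIs, a ratio of 1.13 (1.07 to 1.20). A Serping1 UMI was seen in 57.4% and 63.3% of fibroblasts, and in 35.2% and 39.5% after thinning. Each of the 4 large clusters carried it, with 519 and 573 in the Nkain2/Fbn2/Vit cluster, 477 and 537 in the Rbfox1-led cluster, 455 and 485 in the Pi16 cluster and 293 and 351 in the Postn/Cilp cluster. The interferon-response cluster had 334 and 746 CPM on 32 and 34 UMIs (2.23-fold, 1.34 to 3.74). Vascular mural cells carried it too. Pericytes had 149 and 163 CPM (274 and 314 UMIs, 1.09-fold, 0.928 to 1.29) and smooth muscle cells 204 and 164 on 26 and 16 UMIs. Endothelial cells were lower, at 18.1 and 21.7, and lymphatic endothelial cells had 82.0 and 86.1 on 15 and 22 UMIs. The fibroblast level was 3.03- and 3.14-fold that of pericytes.

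At least 1 of C1ra, C4b, C3, C7 and Serping1 was seen in 72.5% of Sham and 81.2% of TAC fibroblasts, and all 5 in 1 and 5 cells. Summed, the 5 genes were 977 and 1238 CPM in fibroblasts, a ratio of 1.27 (1.22 to 1.31). This sum does not stand for each gene, as the single ratios ran from 0.898 for C7 to 2.83 for C3. C3 alone was 570 of the 5310 Sham and 1540 of the 6421 TAC UMIs.

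Across the large cell types, the members were set beside all genes with at least 50 UMIs over both libraries, with 1 CPM added. In fibroblasts, 2 of 8 members (C4b and C3) were at least 1.5-fold higher in TAC, where 9.30% of genes were, and 0 were 1.5-fold lower, where 3.59% were. The median log2 ratio was 0.08 over the members and 0.02 over all genes. In macrophages, 1 of 6 members with enough UMIs (C3) was past 1.5-fold higher, where 8.41% of genes were, and 0 were lower, against 8.10%, with medians of 0.32 and 0.00. In endothelial cells, 2 of 4 (C1qa and C3) were higher against 8.15% of genes and 0 lower against 5.26%. In pericytes, 1 of 2 (C3) was higher against 6.92% and 0 lower against 6.00%. In cardiomyocytes, 3 of 4 (C1qa, C1qb and C3) were higher against 10.2% and 0 lower against 4.84%. The member counts in these types depend on the minimum of 50 UMIs. C1qc fell under it in endothelial cells (16 and 28 UMIs) and in cardiomyocytes (21 and 24 UMIs). Without the added CPM, its ratios there were 1.31 and 1.18, with intervals that included 1. C1ra, C4b and C7 were also under it in both types, with ratios of 0.685 to 1.65 and intervals that included 1. C3 was the member past this fold in all 5 cell types.

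**Figure D5:**
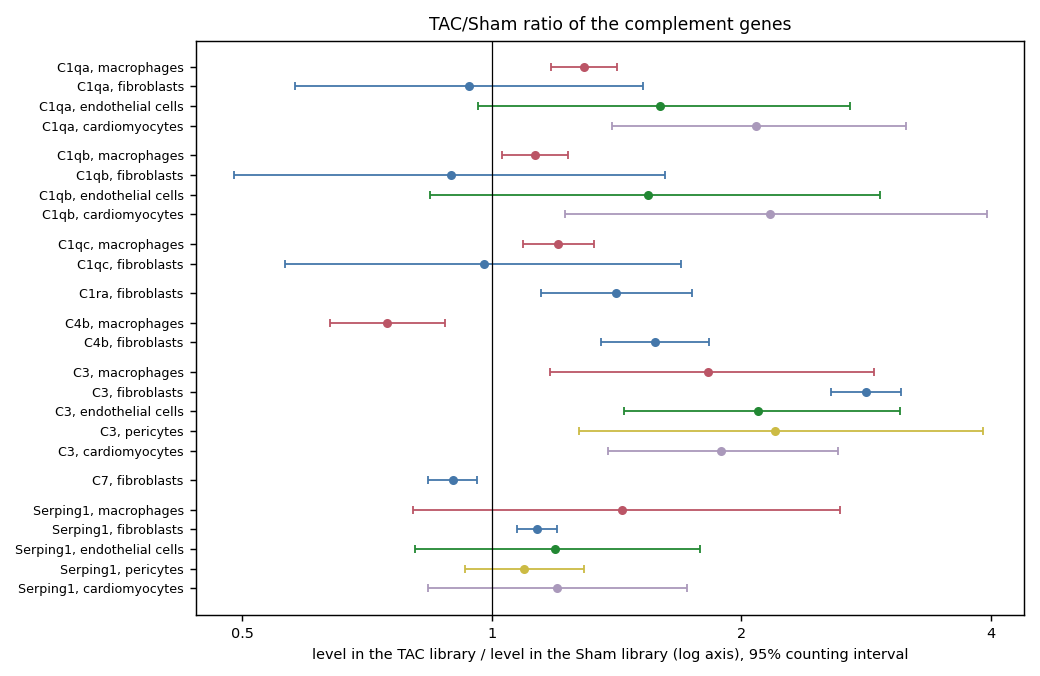
Ratio of TAC to Sham CPM (log axis) for each gene in the large cell types where it was counted, with exact conditional binomial 95% intervals. C3 is above 1 in each type, up to 2.83 in fibroblasts, while C4b is 0.749 in macrophages and 1.57 in fibroblasts.

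The wider complement list held 54 genes, 46 of them outside the 8 members, and the named ones are those with the most UMIs of each group. Of the C1 complex, 5 of 7 genes had at least 50 UMIs in a cell type. C1s1, the protease paired with C1r, was 155 and 153 CPM in fibroblasts, 177 and 122 in pericytes and 526 and 410 in smooth muscle cells. Of the lectin pathway, 4 of 8 were counted. Colec11, a collectin, was a pericyte gene at 277 CPM in both libraries (89.8% of its UMIs), and Masp1, a lectin pathway protease, was a cardiomyocyte gene at 37.4 and 25.8 (88.6%).

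Of C2, C3, C4 and the alternative pathway, 3 of 7 were counted, and Cfp, or properdin, was 41.7 and 64.3 CPM in macrophages (1.54-fold). Of the terminal pathway, 2 of 7 were counted, C7 and C6. C6, which binds before C7 in the assembling pore, had 89.6% of its UMIs in macrophages, at 35.8 and 26.0 CPM, so C6 and C7 were counted in different cells. Of the soluble regulators, 5 of 8 were counted. Clu, which holds back pore assembly, was 57.1 and 46.0 in cardiomyocytes. Of the membrane regulators, 6 of 8 were counted, with Cr1l at 139 and 142 in fibroblasts and 186 and 218 in endothelial cells, and Cd46 at 80.1 and 72.7 and at 101 and 94.4 in the same types.

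Of the receptors, 8 of 9 were counted. Vsig4, a macrophage receptor for C3 fragments, was 108 and 185 CPM in macrophages (1.71-fold), with 96.6% of its UMIs there. Cd93, a C-type lectin-like receptor, was 152 and 179 in endothelial cells. By the same 1.5-fold rule, 4 of the 14 other complement genes compared in macrophages were higher in TAC (C5ar1, Cfp, Fcna and Vsig4, against 8.41% of genes) and 1 lower (Cd46, against 8.10%). In fibroblasts, 2 of 12 were higher (Cr2 and Masp2, against 9.30% of genes) and 2 lower (Csmd1 and Masp1, against 3.59%). In endothelial cells 2 of 10 were higher (Colec11 and Cr2, against 8.15%) and 0 lower (5.26%), and in pericytes (6 compared) and cardiomyocytes (11) 0 were past the fold in either direction, where 6.92% and 10.2% of genes were higher and 6.00% and 4.84% lower.

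The patterns across cell types were compared by Pearson's r of log2 levels over 11 points, namely the 5 large cell types in both libraries and lymphatic endothelial cells in TAC, each with at least 100 cells. The points of a cell type share markers, and those of a library share depth and free RNA, so r is a description. Of 10292 genes, the nearest to C1qa included Tyrobp (0.993) and Fyb, to C1qb were Fyb (0.997), Prkcb and E230029C05Rik, and to C1qc Cybb (0.996), Runx1 and Cltc. For C4b they were Adcy7 (0.989), Il16 and BE692007. For C1ra they were Vgll3 (0.972), Pi15 and Col3a1, for C3 Snhg3 (0.974), Insig2 and Gsn, for C7 Sfrp1 (0.993), Lvrn and Htra3, and for Serping1 Klhl22 (0.992), Morf4l2 and Oaf. Among the members, the C1q pairs had r of 0.983 to 0.992, C1ra with Serping1 and C3 with C7 0.836 each, and C4b with the C1q chains 0.678 to 0.735. C4b had r of 0.584 with C3, 0.558 with C7, 0.297 with C1ra and 0.176 with Serping1.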

How the data were processed

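The study states that hearts were dissociated into single cells. Among the cells kept, the median mitochondrial share of UMIs was 0.459% in Sham and 0.287% in TAC. In cardiomyocytes it was 0.234% and 0.128%. Whether the barcodes hold whole cells or nuclei was not tested. Libraries were made with 10x Chromium 3′ chemistry, 1 for Sham and 1 for TAC. The kit is given as V3 in the labels. The authors deposited whole-number UMI counts per gene and barcode, made with Cell Ranger 7.1.0 per the file headers, and the genome build is not given in the sources used here (94.1% of gene IDs are in GENCODE M21). How reads in introns and on the other strand were counted is also not given there. The Sham matrix held 9935 barcodes with 28146691 UMIs (median 1964 UMIs, 1164 genes) and the TAC matrix 9932 with 29108986 (2143, 1262).

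Barcodes with fewer than 200 genes (1 per library) and doublets called by Scrublet (expected 0.8% per 1000 cells; 459 Sham, 479 TAC; 4.62% and 4.82%) were removed. Each library was clustered by itself with scanpy 1.11.5 (2000 variable genes, 30 principal components, 15 neighbours, Leiden resolution 1, seed 1), leaving out complement and mitochondrial genes. A cluster took the name with the most of its fixed markers, of 18 types, in at least 10% of cells at a log2 fold of at least 1, with at least 3 markers. Keeping cell cycle clusters unnamed and the rule for ties were added after the first clusters were seen. Fibroblasts and macrophages of both libraries were sub-clustered together at resolution 0.5. UMIs were summed per cell type and library and divided by that sum of all UMIs. With 1 library per condition no test was run. Intervals are at 95% and a count of 0 was given a limit of 3 counts.

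The members and gene lists were chosen with earlier results of these data known. Named genes are the 8 members, the 2 other complement genes with the most UMIs of each group that had at least 50 UMIs in a cell type, the genes past 1.5-fold in a list, the 3 genes most like each member by Pearson's r, and the cardiac stress genes. Of the genes this rule names, 2 are not reported here. Of the interferon-induced list, 1 of 9 genes compared in macrophages was at least 1.5-fold higher in TAC and 0 lower, against 8.41% and 8.10% of all genes, with a median log2 ratio of -0.32 and 2 of 9 above 1. Of the immediate-early list, 0 of 7 were past that fold in either direction in macrophages. For the fold comparison across genes, 1 per 1000000 UMIs (CPM) was added. Promoters of 5 of the 8 members were matched in RefSeq, and C1qa, C4b and Serping1 were not. The scripts were checked on simulated counts. Other versions were Python 3.11.15, numpy 2.4.6, scipy 1.17.1, pandas 2.3.3, scikit-learn 1.9.0, igraph 0.11.9 and matplotlib 3.10.9. Alternatives covered the gene filter, mitochondrial share, doublets, clustering, cell naming, scaling, count minimum and thinning. Leaving out shared barcodes, and the cell with the most C7 UMIs, were chosen after seeing the data.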

Additional observations from a re-analysis of the deposited data

Results flagged for a closer look

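C4b drew attention because its ratio of TAC to Sham lay on opposite sides of 1 in macrophages and fibroblasts, with intervals that excluded 1. The ratio was 0.749 (0.638 to 0.878) in macrophages and 0.759 (0.572 to 0.996) in their Zbtb16-led cluster. In the class II-low resident cluster it was 0.771, with an interval that included 1 (0.585 to 1.02). The C4b ratio was 1.57 (1.35 to 1.83) in fibroblasts, 1.85 (1.30 to 2.63) in the Rbfox1-led fibroblast cluster, 1.74 (1.10 to 2.84) in the Pi16 adventitial cluster and 1.43 (1.17 to 1.73) in the Nkain2/Fbn2/Vit cluster. The small Erbb4-led fibroblast cluster, on 13 and 7 UMIs, had the opposite direction to the other fibroblasts (0.368, 0.124 to 0.994), and the class II/Ccr2 macrophages had 1.22 (0.706 to 2.18). C7 was set apart in the same way among fibroblast clusters. Its ratio was 0.898 (0.839 to 0.961) in fibroblasts together, 0.528 (0.405 to 0.682) in the Postn/Cilp cluster and 0.485 (0.439 to 0.536) in the Pi16 adventitial cluster, against 1.38 (1.21 to 1.57) in the Nkain2/Fbn2/Vit cluster. With 1 library per condition, the difference between these ratios was not tested.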

How the results depend on the processing

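No paired analysis was possible because Sham and TAC are represented by 1 library apiece, and for the same reason no library could be left out. Over the alternatives, the ratio of TAC to Sham stayed on its side of 1 for every member in its main cell type, and C4b stayed below 1 in macrophages (0.748 to 0.842) and above 1 in fibroblasts (1.56 to 1.82). C3 in fibroblasts ranged from 2.82 to 2.98, C7 from 0.894 to 0.958, and the summed C1q ratio in macrophages from 1.20 to 1.25. With no doublets removed, fibroblasts held 78.8% (Sham) and 76.5% (TAC) of the UMIs of the 5 other members, against 83.1% and 82.4%, and their summed ratio was 1.34. With each cell named from its own markers, which kept 892 and 1005 macrophages and 1203 and 1410 fibroblasts, macrophages held 63.7% and 75.0% of C1q UMIs, and fibroblasts 49.9% and 60.0% of the others. At sub-clustering resolution 1, the C7 ratio was 0.704 in the Postn/Cilp cluster and 0.787 (0.532 to 1.15) in the cells then named Nkain2/Fbn2/Vit. C4b in the cells then named Nkain2/Fbn2/Vit stood 2.05- and 2.08-fold above the other fibroblasts. That name then covered 107 and 72 cells, and the 1040 of its earlier cells left without a name had C7 at 261 and 366 CPM. With no count minimum, genes past 1.5-fold numbered 3552 higher and 2783 lower in macrophages (802 and 773 with the minimum) and 2834 and 1393 in fibroblasts (1144 and 441), of 24026 and 27004 genes. Without the barcodes that both libraries shared, macrophages held 88.8% of C1q UMIs in each library and the summed ratios were 1.22 for C1q and 1.26 for the other members. Of the other values, 200 stayed within their counting interval and 80 moved beyond it, all of them shares of UMIs under cell naming or doublet removal and shares of cells at other depths. Depth limits the small types: Schwann and epicardial levels rest on at most 40 UMIs for C3 and 10 for C4b.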
